A study of Homo sapiens with 12 samples.

Results

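The genes described here are 40 genes of mitosis and the G2/M phase, chosen by name as known parts of the machinery that brings a cell into and through division, with MKI67 as the marker. All 40 were found by symbol among the 56269 genes of the count table, and all 40 passed the filter on low counts that left 16069 genes for testing. RNA was sequenced from HEYA8, an established ovarian cancer cell line, grown in medium with 10% FBS and labelled resting state. Betaglycan (BG), the type III TGF-β receptor encoded by TGFBR3, carries heparan sulfate and chondroitin sulfate glycosaminoglycan (GAG) chains. The cells had received a lentiviral control vector or BG with a chain-bearing serine changed to alanine, either S534A (CS-BG, with a preference for chondroitin sulfate) or S545A (HS-BG, heparan sulfate), or with both changes (∆GAG-BG, no chains), with 3 libraries of each of the 4 kinds. The vector carries a dTomato reporter, by which transduced cells were collected, so each group is a pool of transduced cells and not a clone, and HEYA8 cells keep their own TGFBR3 gene. The design text calls the 3 libraries of a group biological replicates without saying how they were separated, so p-values measure the spread between these libraries.

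Transcripts of most genes of this kind are highest in G2 and mitosis. CDK1 with its cyclins A and B starts mitosis, PLK1 and the Aurora kinases build the spindle, the checkpoint proteins hold anaphase back until chromosomes are attached, and the anaphase-promoting complex with CDC20 and UBE2C then destroys cyclin B and securin. In dividing cultures their transcripts follow the share of cells in G2 and mitosis, and MKI67 is the marker of proliferating cells in tumor pathology. Their promoters are known for 2 short elements, the cell cycle genes homology region (CHR, TTTGAA), where the MuvB complex sits with repressors in resting cells and with B-MYB and FOXM1 in G2, and the CCAAT box of the factor NF-Y.

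Promoter windows running from 250 bases before to 50 bases after the transcription start (RefSeq, GRCh38.p14) were found for 34 of the 40 genes, and BUB3, TTK, AURKA, BIRC5, UBE2C and TPX2 had none. TTTGAA, read on both strands, was present in 24 of the 34 windows (70.6%), against 9.53% of the windows of 10225 tested genes and 1 of 26 windows of S phase genes (3.85%). CCAAT was present in 26 of 34 (76.5%) against 36.5%, but also in 57.7% of the S phase windows and 58.1% of 86 windows of other mitotic genes, of which 45.3% held TTTGAA. Of the 34, 20 (58.8%) held both, against 4.03%. The stretches below lie upstream of the start that RefSeq gives and are shown for genes whose values the results turn on, with TTTGAA and CCAAT in capitals, each in either direction (TTCAAA or ATTGG where it is on the other strand). In MKI67 the TTTGAA nearer to the start shares a base with the CCAAT box beside it.
PLK1, chr16:23678806-23678875, plus strand: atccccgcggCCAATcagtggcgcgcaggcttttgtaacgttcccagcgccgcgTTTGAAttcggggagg
MKI67, chr10:128126433-128126531, minus strand: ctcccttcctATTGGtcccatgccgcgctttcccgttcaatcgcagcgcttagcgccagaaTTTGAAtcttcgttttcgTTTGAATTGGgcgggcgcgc
CDC20, chr1:43358793-43358940, plus strand: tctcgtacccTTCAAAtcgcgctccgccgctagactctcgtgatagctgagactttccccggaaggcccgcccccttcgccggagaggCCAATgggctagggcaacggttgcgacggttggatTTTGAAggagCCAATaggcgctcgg
PRC1, chr15:90994540-90994598, minus strand: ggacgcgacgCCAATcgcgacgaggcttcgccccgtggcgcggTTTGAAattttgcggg
KIF4A, chrX:70290036-70290085, plus strand: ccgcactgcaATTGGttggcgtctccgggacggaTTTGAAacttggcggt
KIF11, chr10:92593067-92593117, plus strand: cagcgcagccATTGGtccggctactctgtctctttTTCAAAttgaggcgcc
KIF20A, chr5:138179008-138179059, plus strand: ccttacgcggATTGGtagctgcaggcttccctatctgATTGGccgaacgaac
CCNB1, chr5:69167053-69167109, plus strand: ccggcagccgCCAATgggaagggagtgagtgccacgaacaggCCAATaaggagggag
In PLK1, PRC1, KIF4A and KIF11 a single TTTGAA begins 29, 20, 34 and 28 bases before the start, with a CCAAT box further upstream. MKI67 and CDC20 hold 2 copies of each element, and KIF20A and CCNB1 hold 2 CCAAT boxes and no TTTGAA upstream of the start. A match of letters is no proof of a bound factor.

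Total counts ran from 16410001 to 29504297 per library, and the lowest count of any of the 40 genes in any library was 359 (CDC25C), so counting error was small. Levels are given as CPM, counts scaled to the library total with TMM factors, which equalizes library composition. TGFBR3, the gene of the constructs, was at 413 to 574 CPM in S534A and S545A, but at 260, 20.3 and 21.4 CPM in libraries 1, 2 and 3 labelled ∆GAG-BG and at 15.9, 259 and 259 CPM in those labelled control vector, so libraries of these 2 groups go against each other's labels. Every comparison below that uses "∆GAG-BG" or "control vector" refers to the libraries so labelled. Libraries 2 and 3 of S545A, control vector and ∆GAG-BG were nearly alike, their counts giving a chi-square value of 1.4, 1.44 and 1.99 per degree of freedom, and the remaining pairs within groups 17.3 to 77.9. Whether libraries this close are independent is not known. The main tests, the SDs and the counts of groups that do not overlap treat them as separate, which may overstate the number of independent cultures. HSPA5, the endoplasmic reticulum chaperone BiP, was at 11860 CPM in ∆GAG-BG library 1, at 287 CPM in S534A library 2 and at 1228 to 3906 CPM in the other 10 libraries. Of the markers of the labelled cell type, KRT7, KRT8, KRT18, PAX8 and VIM were at 193 to 3132 CPM and WT1 at 3.42 to 8.38 CPM, while EPCAM and KRT19 stayed at or under 1.77 CPM and MUC16 was at 0 in all libraries. Leukocyte genes were near 0 (PTPRC at most 2 counts, CD14 at most 4, CD3E 0), and of the endothelial genes PECAM1 was at 0.205 to 0.768 CPM and CDH5 at 168.5 to 431 CPM. The fibroblast and pericyte genes ACTA2, COL1A1 and PDGFRB were at 0.701 to 17.7 CPM.

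Per kilobase of exon, the highest of the 40 on average over the 12 libraries were TOP2A, the topoisomerase that untangles chromosomes, at 167 CPM per kb, TPX2, a spindle assembly factor, at 156, CDC20 at 129.9, CCNB1 (cyclin B1) at 118 and UBE2C at 106. The lowest were CDC25C, a phosphatase that activates CDK1, at 7.54 CPM per kb, CDCA3, a regulator of entry into mitosis, at 9.9, and the kinetochore motor CENPE at 11.7. The order of the highest was not fixed, since TOP2A ran from 94.5 to 189 CPM per kb across libraries and TPX2 from 93.3 to 177. MKI67, a protein of the chromosome surface, was at 46.1 CPM per kb, and CDK1 at 43.

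The largest differences among the 12 libraries lay within groups. S534A library 2 held the lowest level of 25 of the 40 genes and ∆GAG-BG library 1 the lowest of the other 15, so that these 2 libraries were lowest for every member. They were also often extreme for other genes: S534A library 2 was the lowest of 12 for 25.4% of all tested genes and ∆GAG-BG library 1 for 16%, together 41.4%. The summed level of the 40 genes was 4715 CPM in S534A library 2 and 5401 CPM in ∆GAG-BG library 1, against 7579 to 8677 CPM in the other 10 libraries. In RNA from whole cultures, fewer cells in G2 and mitosis and less of these RNAs per cell cannot be told apart.

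**Figure D1:**
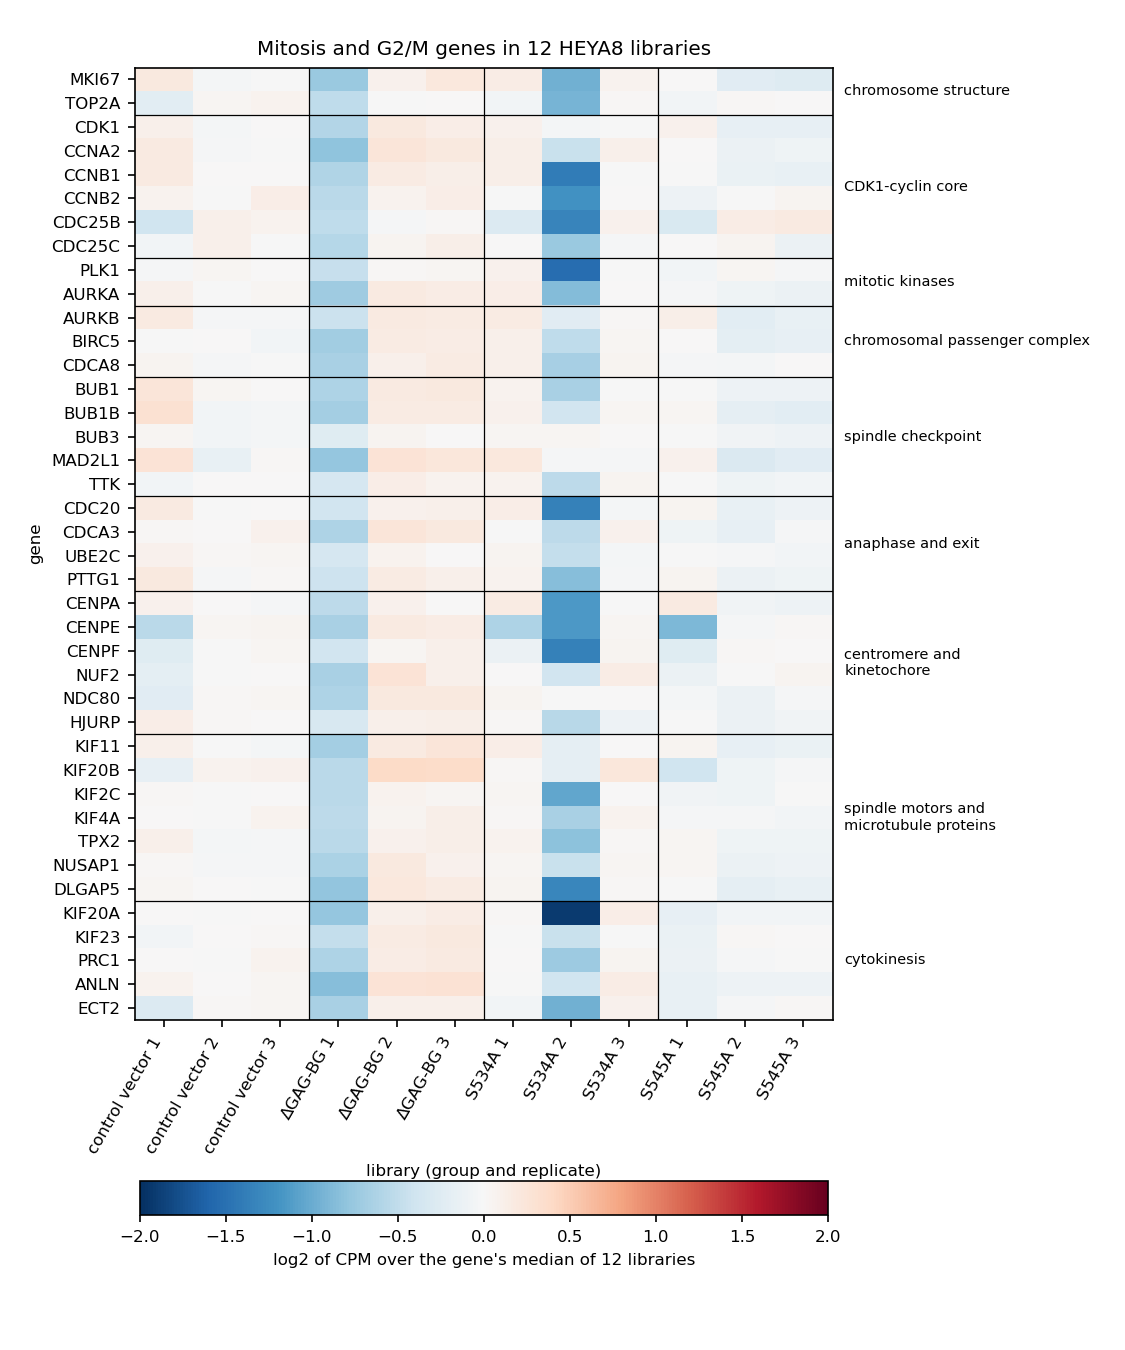
Level of each of the 40 genes (rows, grouped by role) in each of the 12 libraries (columns, by group), as log2 of its CPM minus the median of that gene over the 12 libraries. Columns S534A 2 and ∆GAG-BG 1 are low for nearly every gene, and ∆GAG-BG 2 and 3 are slightly high.

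The kinesin KIF20A, which works in cytokinesis, had the widest span of all, with a highest level 4.2 times its lowest. It was 159, 157 and 159 CPM in control vector libraries 1, 2 and 3, 92.6, 169.9 and 176 in ∆GAG-BG, 159.8, 41.9 and 173 in S534A and 140.2, 152 and 153 in S545A. PLK1, the Polo-like kinase, followed with a ratio of 3.02 and was 144, 149.6 and 147 CPM in control vector, 106, 148 and 149.9 in ∆GAG-BG, 154, 50.9 and 144 in S534A and 140.2, 149 and 143 in S545A. Outside the 2 low libraries, PLK1 stayed within 140.2 to 154 CPM in all groups. CCNB1, the cyclin that drives CDK1 into mitosis (ratio 2.98), was 361, 321 and 321 CPM in control vector, 211, 358 and 346 in ∆GAG-BG, 348, 121 and 318 in S534A and 320, 291 and 290.2 in S545A. In S534A library 2 the levels of KIF20A, PLK1 and CCNB1 were 0.252, 0.341 and 0.364 of the mean of the other S534A libraries, while in ∆GAG-BG library 1 they were 0.536, 0.712 and 0.6 of the mean of the other ∆GAG-BG libraries.

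**Figure D2:**
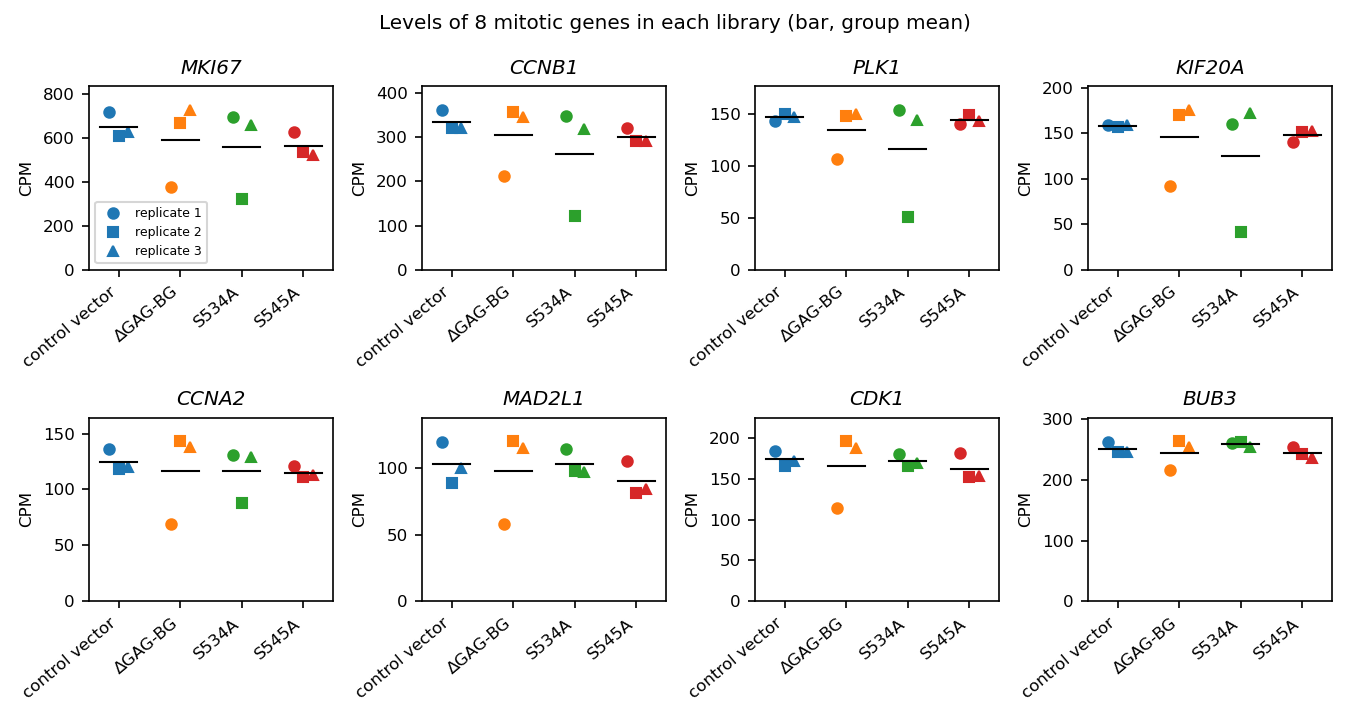
Level in CPM (vertical axis, from 0) of 8 of the 40 genes in each library, by group, with the mean of 3 libraries as a bar. S534A library 2 is the low point for KIF20A, PLK1, CCNB1 and MKI67, and ∆GAG-BG library 1 for CCNA2, MAD2L1, CDK1 and BUB3.

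Among the genes of the CDK1-cyclin core, the 2 low libraries differed in which genes were lowest. CDK1 itself was 184, 166 and 172 CPM in control vector libraries 1, 2 and 3, 114, 196 and 188 in ∆GAG-BG, 181, 166 and 170.1 in S534A and 183, 152 and 154 in S545A. Its level in S534A library 2 was 0.946 of the other S534A libraries, and in ∆GAG-BG library 1 it was 0.593 of the other ∆GAG-BG libraries. CCNA2 (cyclin A2, which acts from S phase into early mitosis) was 136, 118 and 119.8 CPM in control vector, 68.7, 143 and 138 in ∆GAG-BG, 131, 88.03 and 129 in S534A and 121, 111 and 113 in S545A, so it was lower in ∆GAG-BG library 1. CCNB2 (cyclin B2) was 103, 97.6 and 108 CPM in control vector, 67.4, 104 and 107 in ∆GAG-BG, 98.3, 42.3 and 98.3 in S534A and 91.2, 97.6 and 102 in S545A, so it was lower in S534A library 2. The CDK1-activating phosphatase CDC25B stood at 0.424 in S534A library 2 and 0.702 in ∆GAG-BG library 1, on the same scale of the mean of the group's other 2 libraries, and CDC25C at 0.601 and 0.636.

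The other kinases and the chromosome proteins were low in both libraries. AURKA, the spindle pole kinase, was 176, 163 and 167 CPM in control vector libraries 1, 2 and 3, 100, 185 and 181 in ∆GAG-BG, 178, 89.1 and 164 in S534A and 161, 153 and 151 in S545A. AURKB, the kinase of the chromosomal passenger complex, was 79.2, 69 and 68.99 CPM in control vector, 51.9, 79.4 and 78.2 in ∆GAG-BG, 78, 59.8 and 70.9 in S534A and 75.5, 60.6 and 62.8 in S545A. S534A library 2 was thus below the rest of its group for both, but S545A libraries 2 and 3 came close to it for AURKB. BIRC5 (survivin), the anchor of the same complex, was 179, 179.8 and 172 CPM in control vector, 110.5, 201 and 198 in ∆GAG-BG, 192, 127 and 184 in S534A and 181, 156 and 160.5 in S545A. MKI67 was 717, 611 and 625 CPM in control vector, 375, 666 and 728 in ∆GAG-BG, 696, 323 and 658 in S534A and 628, 536 and 524 in S545A. The 2 low libraries lay below all others for both genes, and for MKI67 the next lowest were S545A libraries 2 and 3. TOP2A was 1005, 1187 and 1216 CPM in control vector, 821, 1161 and 1168 in ∆GAG-BG, 1124, 608 and 1184 in S534A and 1118, 1179 and 1162 in S545A, with the control vector library 1 next above the 2 low ones.

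Genes of anaphase and exit had the smallest median difference of any role in ∆GAG-BG library 1. CDC20, which directs the anaphase-promoting complex, was 317, 277 and 282 CPM in control vector libraries 1, 2 and 3, 215, 298 and 299.7 in ∆GAG-BG, 305, 109.9 and 273 in S534A and 289.9, 251 and 260.3 in S545A. UBE2C, its ubiquitin-conjugating enzyme, had the second smallest span of the 40 (ratio 1.48) and was 149, 143 and 144 CPM in control vector, 111, 148 and 141 in ∆GAG-BG, 146, 100.4 and 137 in S534A and 139.7, 138 and 136 in S545A. PTTG1 (securin), which holds back the enzyme that cuts cohesin, was 122, 105 and 109 CPM in control vector, 80.1, 119.6 and 114 in ∆GAG-BG, 112, 59.4 and 105 in S534A and 110.4, 98.8 and 101 in S545A. All 3 were lowest in S534A library 2, and in ∆GAG-BG library 1 they lay above that but below the other 10 libraries. CDCA3 was the exception in this role, at 40.1 CPM in S534A library 2 and 37.7 CPM in ∆GAG-BG library 1.

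The spindle checkpoint genes had the largest median difference of any role in ∆GAG-BG library 1, but also the gene that varied least. BUB3, the checkpoint protein that brings BUB1 and BUB1B to the kinetochore, had the smallest span of the 40 (ratio 1.22) and was 263, 246 and 247 CPM in control vector libraries 1, 2 and 3, 216, 264 and 255 in ∆GAG-BG, 260.5, 263 and 255 in S534A and 255, 243 and 237 in S545A. BUB3 in S534A library 2 was 1.02 of the mean of the other S534A libraries, the only member not lower there. BUB1, the checkpoint kinase, was 187, 163 and 159 CPM in control vector, 104, 181 and 182 in ∆GAG-BG, 168, 101 and 158 in S534A and 159, 148 and 148 in S545A. MAD2L1, which forms the inhibitor of CDC20, was at 0.924 in S534A library 2 and at 0.493 in ∆GAG-BG library 1, each relative to the other libraries of its group. CENPF, a kinetochore protein, showed the reverse order, at 363, 154 and 409.8 CPM in S534A, 303, 403 and 422 in ∆GAG-BG, 334, 392 and 406 in control vector and 332, 402 and 395 in S545A. NDC80, which binds spindle microtubules at the kinetochore, was at 0.977 in S534A library 2 and 0.572 in ∆GAG-BG library 1.

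The proteins that move and bundle spindle microtubules and those that cut the cell apart were low in both libraries to differing degrees. In the 7 genes of spindle motors and microtubule proteins, the level in S534A library 2 ran from 0.396 (DLGAP5, which stabilizes kinetochore fibers) and 0.48 (KIF2C, the microtubule-depolymerizing kinesin MCAK) to 0.834 (KIF11, the motor that pushes spindle poles apart) of the other S534A libraries, and in ∆GAG-BG library 1 from 0.507 (DLGAP5) to 0.661 (KIF2C) of the other ∆GAG-BG libraries. KIF11 was 127, 118 and 116 CPM in control vector, 74.5, 135 and 140.5 in ∆GAG-BG, 130.3, 104 and 120 in S534A and 123, 106 and 108 in S545A, so S534A library 2 lay just under S545A libraries 2 and 3. Of the cytokinesis genes, PRC1, which bundles the central spindle, was 200.5, 199 and 209 CPM in control vector, 130.1, 221 and 224 in ∆GAG-BG, 199, 120 and 206 in S534A and 183, 196 and 199 in S545A. PRC1 and KIF4A, the motor that it recruits, were at 0.591 and 0.613 in S534A library 2 and at 0.584 and 0.652 in ∆GAG-BG library 1. ANLN, KIF23 and ECT2 ran from 0.508 to 0.74 in S534A library 2 and from 0.457 to 0.636 in ∆GAG-BG library 1. Of the centromere and kinetochore genes not yet given, CENPA, CENPE, HJURP and NUF2 ran from 0.427 to 0.727 and from 0.559 to 0.741 in the 2 libraries.

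Over the whole set, log2(CPM + 1) in S534A library 2 was set against log2 of the mean CPM of the group's other libraries plus 1. By this measure 39 of 40 genes were lower in S534A library 2, with a median difference of -0.70, against a median of 0.00 and 49.8% lower among all tested genes. In 11 of the 40 (27.5%) the difference was at least 2-fold, against 1.92% of all genes. In ∆GAG-BG library 1, 40 of 40 were lower, with a median of -0.75 (all genes -0.01, 51.3% lower), and 3 (7.5%) were lower by at least 2-fold, against 1.26% of all genes: the cytokinesis scaffold ANLN at 0.457, CCNA2 at 0.489 and MAD2L1 at 0.493 of the other ∆GAG-BG libraries. By role, the median log2 difference in S534A library 2 ran from -1.23 for the mitotic kinases PLK1 and AURKA and -0.99 for MKI67 and TOP2A to -0.44 for the spindle checkpoint, and in ∆GAG-BG library 1 from -0.80 for the spindle checkpoint to -0.51 for anaphase and exit. These are differences of 1 library from 2, with no replicate of the library itself, so no test was made. In the windows above, genes with both promoter elements were at a median of 0.596 in S534A library 2 (20 genes) and those without both at 0.611 (14 genes).

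**Figure D3:**
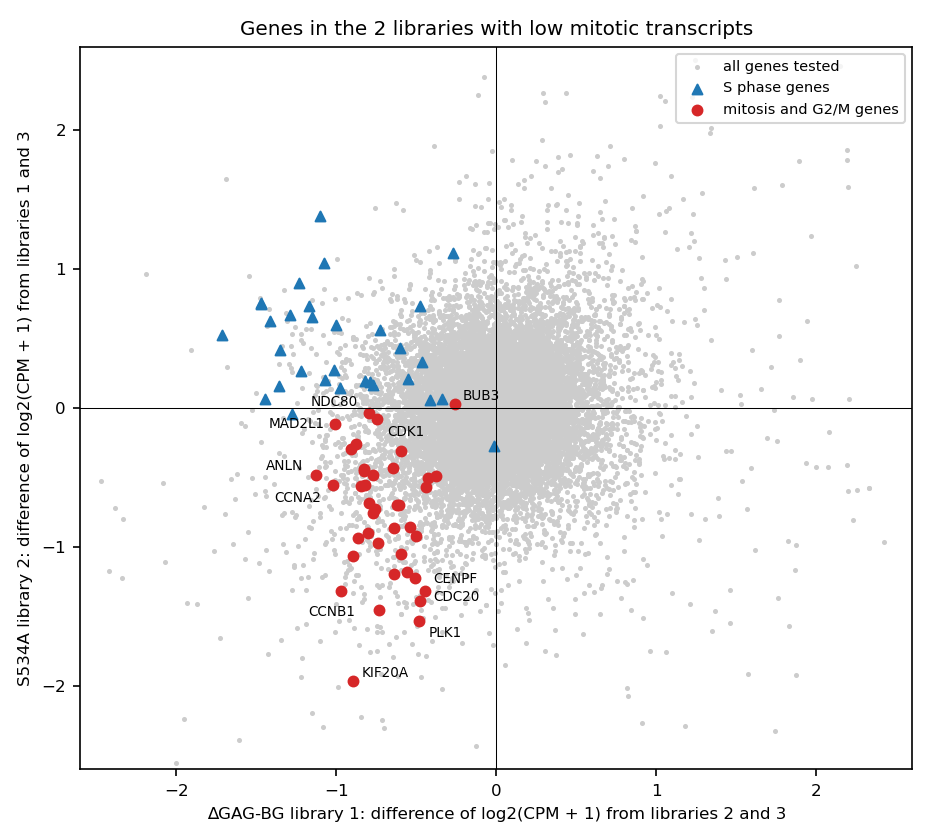
Each point is a gene (grey, all tested genes, of which 23 lie outside the axes). The horizontal axis is log2(CPM + 1) of ∆GAG-BG library 1 minus log2 of the mean CPM of ∆GAG-BG libraries 2 and 3 plus 1. The vertical axis is the same for S534A library 2 against S534A libraries 1 and 3. Of the 40 genes, 40 lie left of 0 and 39 lie below 0, and most S phase genes lie left of and above 0.

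Genes of the preceding phase moved differently in the 2 libraries. Of 31 S phase genes (replication licensing, polymerase clamp, nucleotide synthesis), 29 were higher in S534A library 2 than in the rest of its group, with a median log2 difference of 0.42, and 22 of the 31 were highest there of all 12 libraries, against 26.1% of all genes. In ∆GAG-BG library 1, 31 of 31 were lower, with a median of -1.07, and 18 (58.1%) were lower by at least 2-fold, against the same 1.26% of all genes. Among 103 tested genes of a wider list of mitotic genes, 63 were lower in S534A library 2 (median -0.19) and 96 in ∆GAG-BG library 1 (median -0.66). Named after their values were seen, the spindle pole protein ASPM, the centrosome kinase NEK2 and the CDK phosphatase CDKN3 were at 0.331, 0.356 and 0.37 of the group's other libraries in S534A library 2. Of the genes of this list that were higher there, also named after their values were seen, MYBL2 (B-MYB) was at 1.55 and CDCA5 at 1.515. Of 13 tested genes of the p53 arrest list, 7 were lower in S534A library 2 and 3 in ∆GAG-BG library 1. CDKN1A (p21, an inhibitor of cyclin-dependent kinases), also named after its values were seen, was at 436 CPM in S534A library 2 and 328 CPM in ∆GAG-BG library 1, against 220 to 301 CPM elsewhere. CCNG1 of the same list, named likewise, went the other way in S534A library 2, at 0.504 of the group's other libraries, and was at 1.10 in ∆GAG-BG library 1. HSPA5 was at its highest and lowest levels in these same 2 libraries, as given above, and its part in the result was not tested.

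**Figure D4:**
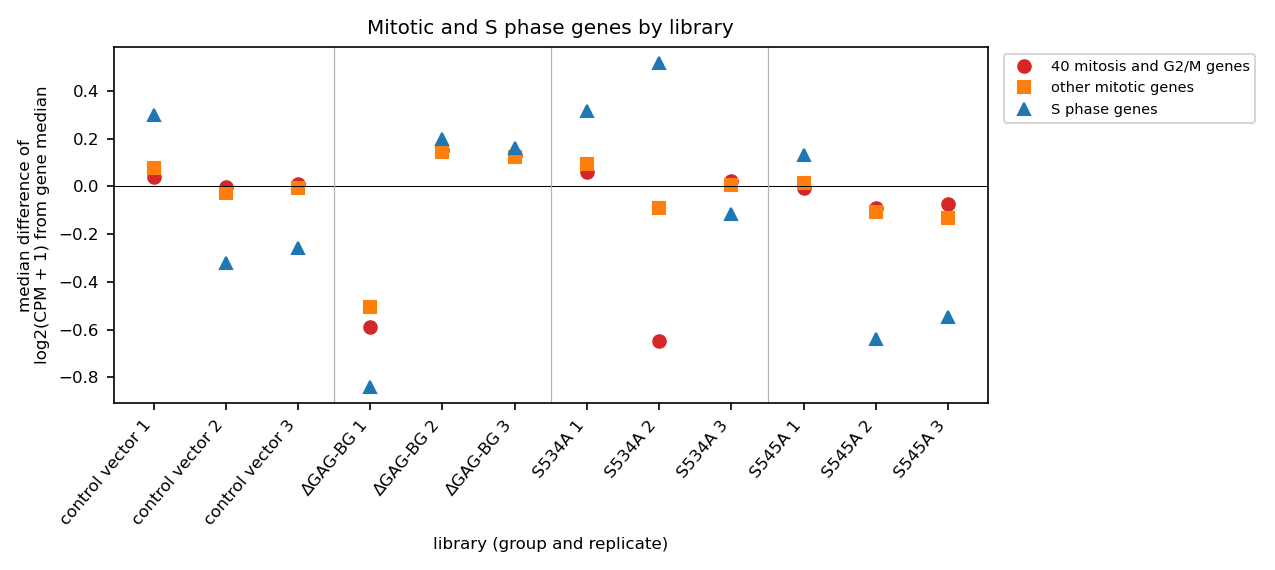
Median over the genes of each list of log2(CPM + 1) minus the gene's median over 12 libraries (vertical axis), for each library (horizontal axis, by group). In S534A library 2 the 40 genes are at -0.65 and the S phase genes at 0.52, while in ∆GAG-BG library 1 the values are -0.59 and -0.84.

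A second grouping, which held for few of the 40 genes, joined replicate 1 of the 4 groups with S534A library 2. In 5 of the 40 genes (12.5%) these libraries were all below the other 7 libraries, namely TOP2A, CDC25B, CENPE, CENPF and the cytokinesis gene ECT2. In 0 of 40 were they all above, an outcome fixed in advance. These libraries include S534A library 2 and ∆GAG-BG library 1, and 1 of these 2 was lowest for every member. The same fact favors the count below, so neither count can be weighed against the shares among all tested genes (5.8% below and 3.94% above). CENPE was widest apart, at 57.9 to 88.4 CPM in these 5 libraries and 127 to 146 CPM in the other 7. CDC25B was at 63.8 to 131 CPM against 156 to 181 CPM. Other members went the other way in replicate 1 of some groups. CCNB1 was 361 CPM in control vector library 1 and 321 CPM in its libraries 2 and 3, and library 1 was also highest in S534A and S545A. In ∆GAG-BG it was lowest in library 1, at 211 CPM, against 358 and 346 CPM in libraries 2 and 3. Control vector library 1 was the highest of 12 for 7 of the 40 genes, against 9.22% of all tested genes. The labels give the replicate number no batch or day, and this grouping of libraries was taken from expression in these same data, so it is a description only.

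By its labels, the comparison of ∆GAG-BG with control vector would ask what BG without GAG chains does to the cells. TGFBR3 was at 20.3 and 21.4 CPM in ∆GAG-BG libraries 2 and 3 but at 259 CPM in control vector libraries 2 and 3. The comparison therefore cannot answer that question and is given for the libraries as labelled. In this comparison, 0 of the 40 genes passed the test. Fitted log2 fold changes ran from -0.15 to 0.13 (median -0.09, all genes 0.00), with 36 genes lower and 4 higher. MKI67 was 589.7 ± 189 CPM in ∆GAG-BG and 651 ± 57.6 in control vector (mean ± SD, n = 3), a log2 fold change of -0.14 (SE 0.28). With edgeR's quasi-likelihood test, 0 of 40 passed an adjusted p of 0.05 (0% of all genes) and 0 of 40 an unadjusted p of 0.05 (0.871% of all genes), and DESeq2 and limma-voom also gave 0 of 40, in this and the other 5 comparisons. The lowest unadjusted p was that of UBE2C (0.382), singled out after its values were seen, as is the gene of lowest p in each comparison that follows, at 134 ± 19.5 against 145 ± 2.97 CPM. The sign of the median was that of 1 library: without ∆GAG-BG library 1 it was 0.11, with 39 of 40 genes higher.

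The single-chain mutants were set against the libraries labelled ∆GAG-BG. With TGFBR3 at 20.3 and 21.4 CPM in libraries 2 and 3 of that group, what either chain adds cannot be read from them. In S534A against ∆GAG-BG, 0 of 40 genes passed the adjusted threshold (0% of all genes) or an unadjusted p of 0.05 (2.99% of all genes), with 35 lower and 5 higher and a median log2 fold change of -0.11 (all genes 0.00). Each group holds 1 of the 2 low libraries, and the spread was wide: KIF20A was 125 ± 72.2 against 146 ± 46.4 CPM and PLK1 116 ± 56.9 against 135 ± 24.8 CPM. The lowest unadjusted p, 0.217, was that of CENPE (log2 fold change -0.44, SE 0.34). The median was 0.11 without S534A library 2 and -0.30 without ∆GAG-BG library 1.

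In S545A against ∆GAG-BG, again 0 of 40 passed either threshold (0% and 1.1% of all genes), with 23 genes lower and 17 higher and a median of -0.02 (all genes -0.01). MKI67 was 563 ± 56.9 CPM in S545A and CCNB1 300.4 ± 17.01, against 589.7 ± 189 and 305 ± 81.5 in ∆GAG-BG. KIF20B, a kinesin of late mitosis, had the lowest unadjusted p (0.189, log2 fold change -0.29, SE 0.21). Without ∆GAG-BG library 1 the median was -0.20 and 39 genes were lower, while without ∆GAG-BG library 2 or 3 it was 0.11 or 0.10 and 38 were higher.

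Against control vector, S534A had 36 genes lower and 4 higher, with a median log2 fold change of -0.19 (all genes 0.01), the largest in size of the 6 comparisons. None passed either threshold (0% and 3.45% of all genes). HJURP, the chaperone that loads CENPA at centromeres, had the lowest unadjusted p (0.118, log2 fold change -0.24, SE 0.15), at 124 ± 24.3 against 146 ± 7.43 CPM. Without S534A library 2 the median was 0.03, with 26 genes higher. TGFBR3 was at 259 CPM in control vector libraries 2 and 3, so what S534A BG adds over the vector alone cannot be read from this comparison.

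With TGFBR3 at 259 CPM in control vector libraries 2 and 3, S545A against control vector cannot show what S545A BG does to the cells. It is the comparison without either low library. It had 36 genes lower and 4 higher, with a median of -0.09 (all genes 0.00), and 0 of 40 passed either threshold (0% and 1.05% of all genes). All 3 S545A libraries lay below all 3 control vector libraries for 10 genes (CCNB1, AURKA, BUB1, KIF20A, KIF4A, CDCA3, PRC1, UBE2C, ANLN and HJURP), against 4.09% of all genes. KIF20A was 148 ± 7 against 158 ± 1.4 CPM and BUB1 151 ± 6.25 against 169.8 ± 15.2 CPM. A two-sided exact permutation test of 3 libraries against 3 cannot give a p below 0.1. The lowest unadjusted p from edgeR was 0.367 (BUB1B, log2 fold change -0.19, SE 0.21). These genes share libraries and move together, so their directions are not separate observations. The median was -0.06 to -0.09 with any single library of the 2 groups left out.

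S545A against S534A compares BG with heparan sulfate chains to BG on which the paper's enzyme digestion found both kinds of chain. With all libraries, 29 genes were higher and 11 lower, with a median of 0.11 (all genes 0), and 0 of 40 passed either threshold (0% and 4.78% of all genes). CDC25B had the lowest unadjusted p (0.187, log2 fold change 0.42, SE 0.30), at 162 ± 28.7 against 122 ± 53.6 CPM. Only BUB3 and NDC80, which were not low in S534A library 2, had all S545A libraries below all S534A libraries, against 4.8% of all genes. BUB3 was 245 ± 8.87 against 259.6 ± 4.08 CPM. Without S534A library 2 the median was -0.09 and 37 genes were lower.

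With S534A library 2 and ∆GAG-BG library 1 both left out, 39 of the 40 genes were higher in ∆GAG-BG than in control vector, and most were lower in S545A than in each other group (36 to 39 of 40 fitted log2 fold changes). This fit was chosen after seeing the data, and the libraries were singled out by these same genes, so its counts are a description. Between S545A and ∆GAG-BG 39 genes were lower (median -0.21), and 27 reached an unadjusted p of 0.05 (edgeR, 5.6% of all genes lower). ANLN led them, with a log2 fold change of -0.39 (SE 0.06, adjusted p 0.124), followed by the spindle protein DLGAP5 at -0.31 (SE 0.06, adjusted p 0.192) and CDCA3 at -0.31 (SE 0.06, adjusted p 0.192). Their levels in ∆GAG-BG libraries 2 and 3 were 444 and 449 CPM for ANLN, 127 and 123 CPM for DLGAP5 and 68.4 and 65.9 CPM for CDCA3, and all S545A libraries were below these.

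In the same fit 13 genes were higher in ∆GAG-BG than in control vector at an unadjusted p of 0.05 (2.82% of all genes higher), among them ANLN, KIF20B, NDC80 and DLGAP5, with a median of 0.12 over the 40. In S545A against S534A 8 genes were lower (2.32% of all genes), MKI67 among them at a log2 fold change of -0.27 (SE 0.10, adjusted p 0.908). In S534A against ∆GAG-BG 4 were lower (1.9%), namely KIF23, CDCA3, ANLN and DLGAP5, and in S545A against control vector 4 were lower (1.66%), namely MKI67, CCNB1, BUB1 and ANLN. In S534A against control vector 0 of 40 did (1.23% of all genes higher and 1.39% lower), with 26 higher, 14 lower and a median of 0.03. None of the 40 passed an adjusted p of 0.05 in any of these comparisons, and the comparisons share libraries. ∆GAG-BG is here its libraries 2 and 3 alone, which are nearly alike and hold TGFBR3 at 20.3 and 21.4 CPM. With all 12 libraries, ∆GAG-BG library 2 or 3 was the highest library for 28 of the 40 genes, against 11.2% of all tested genes.

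In each comparison but that of ∆GAG-BG with control vector, the S phase genes had a larger median difference than the 40 genes. In S545A, 0 of 31 S phase genes were higher than in control vector (median log2 fold change -0.24) and 1 of 31 higher than in ∆GAG-BG (-0.23) or in S534A (-0.61). In S534A, 30 of 31 were higher than in control vector (0.32) and than in ∆GAG-BG (0.31). The comparison of ∆GAG-BG with control vector had 14 of 31 higher (0.00). The wider mitotic genes had medians of -0.09 to 0.03 and the p53 arrest genes of -0.02 to 0.16 over the 6 comparisons. These comparisons share libraries, and 22 of the 31 S phase genes were highest in S534A library 2. No gene of the wider mitotic, S phase or p53 arrest lists passed an adjusted p of 0.05 in any comparison with edgeR. At an unadjusted p of 0.05, 0 of the 103 wider mitotic genes, 31 S phase genes and 13 p53 arrest genes passed in ∆GAG-BG against control vector, S545A against ∆GAG-BG or S545A against control vector. The p53 target BTG2 reached it in S534A against ∆GAG-BG (log2 fold change 0.49, SE 0.22, adjusted p 0.89, with 1.34% of all genes higher at this threshold) and against control vector (0.50, SE 0.22, adjusted p 0.871, with 2.19%). The kinetochore gene CENPT (log2 fold change 0.34, SE 0.15) and CCNE2, which encodes cyclin E2 (1.06, SE 0.45), did so in S534A against control vector, each with an adjusted p of 0.871. In S545A against S534A, 3 of 103 wider mitotic genes were lower at an unadjusted p of 0.05, against 2.68% of all genes, CDC25A (-1.16), SKA3 (-0.46) and CENPK (-0.40 on the log2 scale), as were 6 of 31 S phase genes, led by CCNE2 (-1.38), CDC6 (-0.95) and CDC45 (-1.01), with an adjusted p of 0.702. All 4 of BTG2, CENPT, CCNE2 and CDC25A were highest in S534A library 2, at 18.5, 22.1, 34.2 and 40.8 CPM.

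Of the 40 genes, 15 share exon bases with another gene of the table, 13 with a gene on the opposite strand and 2 on the same strand (CENPA with SLC35F6, BUB1B with the readthrough gene BUB1B-PAK6). How the counting used strand is not given in the sources used here, so reads in those bases cannot be assigned with certainty. KIF4B, a near copy of KIF4A, held at most 8 counts in any library.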

How the data were processed

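The authors deposited 1 table of raw counts per gene for the 12 libraries, made from total RNA with a directional kit. The submitters' processing notes name FastQC, Trim Galore 0.4.5, STAR 2.4, SAMtools 1.2 and featureCounts, and a mouse genome build, although the symbols are human. GENCODE release 29 (GRCh38) holds 36113 of the table's symbols, 33622 of them at identical coordinates, the 40 members included.

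From the deposited counts, genes were filtered with filterByExpr (minimum count 10) and TMM factors computed. A single robust quasi-likelihood fit of the 4 groups was made in edgeR 4.0.16 (R 4.3.3), leaving 8 residual degrees of freedom, and the biological coefficient of variation was 0.163. P-values were adjusted by Benjamini-Hochberg over the 16069 genes tested. Totals ran from 16410001 to 29504297 counts, and 3 counts correspond to 0.102 to 0.183 CPM, which covers counting error only. On simulated data for S534A against ∆GAG-BG (15838 genes), edgeR recovered 194 of 200 genes changed 2-fold, with 6 false calls. The simulation gave every gene the same spread, changed only genes of higher counts and held no library apart from its group. It therefore does not show how often the tests on the real libraries would find such a change. Alternatives were DESeq2 1.42.0, limma-voom (limma 3.58.1), RLE factors, library size only, no filter or at least 10 counts in every library, a fit of the 2 groups alone, a block for the replicate number, and each replicate left out. Log2 levels use a pseudocount of 1.

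The members and lists were chosen with earlier results of these data known. Genes given in every library are 1 to 3 of each role and those with the largest 3 and smallest 2 ratios of highest to lowest library, and list genes are those with the lowest unadjusted p under 0.05. The other members named, with KIF11 and PRC1 in every library, and ASPM, NEK2, CDKN3, MYBL2, CDCA5, CDKN1A and CCNG1 were chosen after their values were seen. Symbols KNL1 and PIMREG of the wider mitotic list were matched as CASC5 and FAM64A. The title of S545A library 3 reads S545S, its genotype S545A. The labels give the replicate numbers no shared batch. Same-numbered libraries of S545A and control vector deviated together (correlations of 0.732, 0.48 and 0.481), but number 3 of S545A and S534A did so too (0.544). They come from the same data, and deviations from a group mean balance out within the group. Libraries 2 and 3 of S545A and of control vector were nearly alike, so their correlations are not separate from that of library 1. The correlations do not establish pairs. The main fit and the permutation test are unpaired, and the replicate number enters only in the fit with the replicate block.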

Additional observations from a re-analysis of the deposited data

How the results depend on the processing

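In every setting and comparison 0 of the 40 genes passed an adjusted p of 0.05. At an unadjusted p of 0.05 the count was also 0 under RLE factors, library size only, both filters, DESeq2, limma-voom and the summing of libraries 2 and 3, while fitting the 2 groups alone gave 1 in S545A against control vector (2.61% of all genes). With single replicates left out, it ran from 0 to 2 (∆GAG-BG against control vector), 0 to 4 (S534A against ∆GAG-BG), 0 to 6 (S545A against ∆GAG-BG), 0 to 2 (S534A against control vector) and 0 to 1 (S545A against S534A), the highest without ∆GAG-BG library 1 in the comparisons with ∆GAG-BG (2.49%, 3.99% and 5.55% of all genes in that order) and without S534A library 3 in the others (11.7% and 15.8%).

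Without S534A library 2 and ∆GAG-BG library 1, a setting added after seeing the data, the counts were 13 (∆GAG-BG against control vector), 4 (S534A against ∆GAG-BG), 27 (S545A against ∆GAG-BG), 4 (S545A against control vector) and 8 (S545A against S534A), beside 5.55%, 3.25%, 10.5%, 3.66% and 5.06% of all genes. Without libraries 2 and 3 of ∆GAG-BG and control vector, also added, 1 library of each was left, assumed to vary like the other groups. The counts were then 12, 11, 10 and 1 in the first 4 of these comparisons (9.07%, 11.1%, 5.36% and 3.49% of all genes), and the median log2 fold changes in the first 3 were -0.625, 0.41 and 0.525. The cause was not tested.

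The log2 fold change of MKI67 changed sign in most comparisons. With single replicates left out it ran from -0.33 to 0.09 (∆GAG-BG against control vector), -0.31 to 0.20 (S534A against ∆GAG-BG), -0.30 to 0.12 (S545A against ∆GAG-BG), -0.42 to 0.055 (S534A against control vector) and -0.26 to 0.21 (S545A against S534A). Without the 2 low libraries it was 0.10, 0.057 and -0.27 in ∆GAG-BG against control vector, S534A against control vector and S545A against S534A. With libraries 2 and 3 summed it was 0.063 and 0.11 in S534A and S545A against ∆GAG-BG, and with libraries 2 and 3 of ∆GAG-BG and control vector left out 0.58 and 0.58. In this last setting CENPE was at 0.15 in S534A against ∆GAG-BG and KIF20B at 0.38 in S545A against ∆GAG-BG.

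With the replicate block, 0 of 40 genes passed in each comparison, and the median ran from -0.20 (S534A against control vector) to 0.12 (S545A against S534A). In S545A against control vector, where the same-numbered libraries deviated together, it was -0.09. By the labels, same-numbered libraries share only a number, and in the other comparisons their correlations ran from -0.312 to 0.544.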
